A study of Mus musculus with 21 samples.

Results

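Transcripts of 10 genes of NF-kB and toll-like receptor signaling (Nfkbia, Nfkb1, Nfkb2, Rela, Ikbkb, Tlr4, Tlr2, Myd88, Tnfrsf1a and Il1r1) were measured by RNA-seq in the ventral hypothalamus (VH) of mice under 4 feeding conditions. The genes were chosen by name, and each symbol matched 1 of the 21654 genes of the count table. The study used a diet switch (DS), in which mice that had been fed regular chow (RC) were moved to a high-fat diet (HFD) or the reverse, to set the effects of body mass apart from those of diet and energy balance. RNA came from frozen punches of the VH, called circumventricular hypothalamus in the sample labels, and each library pooled the RNA of 2 mice.

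Mice without a switch ate RC throughout (RC NoDS, 5 libraries) or HFD throughout (HFD NoDS, 5 libraries). Mice moved from RC to HFD form the RC → HFD group of 6 libraries, and mice moved the other way form the HFD → RC group of 5. All groups were male C57BL/6J mice, 12 to 14 weeks old when acquired, were kept awake for 3 h with unfamiliar objects before collection, and were killed at ZT 6 (zeitgeber time, in hours after lights on). Since a library is a pool, the spread between libraries can understate that between single mice. Reads assigned to genes summed to between 16380781 and 16390598 per library, because the authors re-sampled all libraries to a common depth.

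NF-kB is a family of dimeric transcription factors that IkB proteins hold in the cytoplasm. Toll-like receptors, the interleukin-1 receptor and the tumor necrosis factor receptor signal through adaptor proteins to the IkB kinase complex, which marks IkB proteins for degradation and frees the dimers to enter the nucleus. In the hypothalamus this pathway is known from studies of diet-induced inflammation in neurons, microglia and astrocytes, and much of its regulation acts on proteins that transcript levels do not show.

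Markers of the ventral hypothalamus averaged at least 50 reads in 6 of 6 cases, with Pomc the most abundant at 8304 reads, and so did 2 of 2 lateral hypothalamus markers, Hcrt and Pmch, with Pmch at 1079 reads. The summed reads of the lateral markers had medians of 696 in RC NoDS, 1736 in RC → HFD, 954 in HFD → RC and 2003 in HFD NoDS. Hcrt was higher in HFD NoDS than in RC NoDS by a log2 fold change of 2.71 (adjusted p = 0.0513, edgeR quasi-likelihood with Benjamini-Hochberg adjustment), and the part of punch position in the counts of the 10 genes was not tested. Libraries differed in how many low-abundance genes were detected. Among the 3116 genes averaging 5 to 50 reads, the share with no read was 32.9% in HFD NoDS replicate 20, 31.9% in HFD → RC replicate 17 and 22.4% in RC → HFD replicate 12, against group medians of 2.34% in RC NoDS, 12.1% in RC → HFD, 15.1% in HFD → RC and 14.6% in HFD NoDS. This share differed between the diet groups as well as within them, and its part in the results was not tested beyond the fit that used it as a covariate. HFD NoDS replicate 20 and RC → HFD replicate 12 also held several of the most extreme counts of the 10 genes, as given for each gene. No 2 libraries of a group were identical among 45 pairs, with chi-square per degree of freedom between 6.89 and 42.0.

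Transcript levels covered a wide range when divided by length. In reads per kb of the longest coding transcript, averaged over 21 libraries, the inhibitor gene Nfkbia was highest at 316, followed by Ikbkb at 202, Tnfrsf1a at 195, Rela at 181, Nfkb1 at 132 and Myd88 at 86.1. Tlr2 reached 31.3 reads per kb, Nfkb2 26.9, Il1r1 11 and Tlr4 3.50. The highest level was 90.1 times the lowest, and the median of 12526 genes averaging at least 50 reads was 186 reads per kb. Against those genes Nfkbia was at percentile 66.6 and Ikbkb at 52.4, while Tlr2 was at 7.72, Nfkb2 at 5.82 and Il1r1 at 0.359. In the tissue as a whole, fewer cells of an expressing type and less RNA per cell cannot be told apart.

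Tlr4, the receptor for bacterial lipopolysaccharide (mm9 chr4:66488618-66591318, as for the positions of all 10 genes), was the least abundant of the 10 genes. It had 8, 11, 11, 25 and 7 reads in RC NoDS and 8, 0, 32, 33 and 12 reads in HFD NoDS. RC → HFD libraries had between 0 and 12 reads with a median of 5.5, whereas HFD → RC libraries had 17, 21, 26, 24 and 30 reads. All HFD → RC libraries were therefore above all RC → HFD libraries, while both NoDS groups overlapped every other group. Tlr4 means (± SD, n = 6 for RC → HFD and 5 for other groups) were 12.4 ± 7.27 reads for RC NoDS, 5.83 ± 5.42 for RC → HFD, 23.6 ± 4.93 for HFD → RC and 17 ± 14.8 for HFD NoDS. At this depth a few reads decide the order of libraries. Tlr4 averaged fewer than 50 reads, so its tests came from the fit of the 15884 genes averaging at least 5.

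Tlr2, the receptor for bacterial lipoproteins (chr3:83640195-83645689), had 113, 121, 102, 85 and 108 reads in RC NoDS and 75, 117, 67, 108 and 98 in HFD NoDS. RC → HFD libraries ranged from 53 to 135 reads with a median of 101, and HFD → RC libraries had 84, 87, 59, 88 and 100. Every pair of groups overlapped for Tlr2, with 4 of 5 RC NoDS libraries above the highest HFD → RC library. The largest and the smallest Tlr2 counts were both found in RC → HFD. Group means ran from 83.6 ± 15 reads in HFD → RC (SD, n = 5) to 106 ± 13.6 in RC NoDS (n = 5).

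Tnfrsf1a encodes the main receptor for tumor necrosis factor (chr6:125299380-125312502). It had 359, 474, 444, 420 and 561 reads in RC NoDS and 350, 449, 352, 482 and 521 in HFD NoDS. RC → HFD libraries had between 327 and 483 reads with a median of 400, and HFD → RC libraries had 423, 512, 342, 370 and 397. High and low Tnfrsf1a counts occurred in all 4 groups, and all pairs of groups overlapped. Its means lay within 1.14-fold, from 396 ± 61.1 reads in RC → HFD (SD, n = 6) to 452 ± 74.3 in RC NoDS (n = 5).

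Il1r1, the signaling receptor for interleukin-1 (chr1:40281925-40373043), varied most between libraries of a group among the 9 genes averaging at least 50 reads. Its mean over 21 libraries was 53.3 reads, just above 50, with a median of 42. Its counts were 54, 79, 42, 52 and 68 in RC NoDS and 27, 143, 73, 27 and 32 in HFD NoDS. In the switched groups it ranged from 21 to 60 reads with a median of 38.5 in RC → HFD, and stood at 35, 33, 52, 49 and 123 in HFD → RC. A single library stood far above the rest of its group in HFD NoDS (replicate 20, 143 reads) and in HFD → RC (replicate 17, 123 reads), and these were the libraries with the largest shares of undetected genes. Il1r1 means (± SD, n = 6 for RC → HFD and 5 for other groups) were 59.0 ± 14.5 reads for RC NoDS, 38.5 ± 13 for RC → HFD, 58.4 ± 37.1 for HFD → RC and 60.4 ± 50.05 for HFD NoDS. The groups overlapped throughout.

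Myd88, the adaptor that couples most toll-like receptors and the interleukin-1 receptor to downstream kinases (chr9:119245052-119250529), had 138, 118, 167, 154 and 241 reads in RC NoDS. It had 193, 203, 177, 160 and 204 reads in HFD NoDS, a tight cluster inside the RC NoDS range. RC → HFD libraries had between 115 and 266 reads with a median of 159.5, and HFD → RC libraries had 120, 124, 112, 215 and 178. Myd88 overlapped between all groups, although its HFD NoDS libraries varied least (187 ± 18.8, SD, n = 5) and 3 of the 5 HFD → RC libraries lay below all of them. Acaa1a lies over Myd88 on the opposite strand.

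Ikbkb encodes a catalytic subunit of the IkB kinase complex (chr8:23769684-23817061). Its counts were 814, 781, 780, 981 and 823 in RC NoDS and 849, 794, 791, 748 and 912 in HFD NoDS. They ran from 673 to 880 with a median of 819.5 in RC → HFD and were 815, 863, 682, 520 and 886 in HFD → RC. Ikbkb medians lay between 794 and 819.5 in all groups, with RC NoDS replicate 5 high and HFD → RC replicate 16 low. Group means lay within 1.11-fold, from 753 ± 152 reads in HFD → RC (SD, n = 5) to 836 ± 83.4 in RC NoDS (n = 5), and no pair of groups was separate.

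Rela encodes p65, the subunit that carries the main transactivation domain (chr19:5637483-5648130). It had 453, 448, 476, 462 and 519 reads in RC NoDS and 530, 581, 501, 585 and 360 in HFD NoDS. RC → HFD libraries had between 462 and 603 reads with a median of 503.5, and HFD → RC libraries had 501, 442, 491, 296 and 546. Rela was above all RC NoDS libraries in 3 of 5 HFD NoDS libraries and below all of them in 1, so the groups overlapped. The lowest count, 296 in HFD → RC replicate 16, came from the library that was also lowest in Ikbkb.

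Nfkb1, whose product is processed to the p50 subunit (chr3:135247619-135354511), had 448, 564, 555, 553 and 573 reads in RC NoDS and 482, 595, 564, 836 and 514 in HFD NoDS. Its RC → HFD libraries had between 332 and 611 reads with a median of 521, and its HFD → RC libraries had 585, 512, 578, 534 and 501. HFD NoDS replicate 23 was far above every other library, and RC → HFD replicate 12 was the lowest. The groups overlapped throughout, with means from 499 ± 95.5 reads in RC → HFD (SD, n = 6) to 598 ± 140 in HFD NoDS (n = 5).

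Nfkb2 encodes the precursor of p52, the subunit of the noncanonical branch (chr19:46379227-46386580). Its counts were 64, 98, 89, 73 and 81 in RC NoDS and 103, 130, 93, 98 and 107 in HFD NoDS. They ran from 46 to 126 with a median of 80.5 in RC → HFD and were 69, 88, 98, 78 and 41 in HFD → RC. HFD NoDS libraries were high and close together, and 3 of 5 exceeded all RC NoDS and all HFD → RC libraries, yet both comparisons still overlapped. Nfkb2 means (± SD, n = 6 for RC → HFD and 5 for other groups) were 81.0 ± 13.3 reads for RC NoDS, 83.5 ± 32.7 for RC → HFD, 74.8 ± 21.8 for HFD → RC and 106 ± 14.3 for HFD NoDS. Psd overlaps Nfkb2 on the opposite strand.

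Nfkbia encodes IkB alpha, the inhibitor that NF-kB itself induces in a negative feedback loop (chr12:56590398-56593634). It had 426, 412, 466, 660 and 510 reads in RC NoDS and 352, 778, 428, 581 and 433 in HFD NoDS. RC → HFD libraries had between 366 and 596 reads with a median of 439, and HFD → RC libraries had 548, 754, 432, 416 and 466. Each group held 1 or more libraries well above its median, and the highest and the lowest Nfkbia counts of all 21 libraries were both in HFD NoDS. Group means lay within 1.13-fold, from 465 ± 99.3 reads in RC → HFD (SD, n = 6) to 523 ± 139 in HFD → RC (n = 5).

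**Figure D1:**
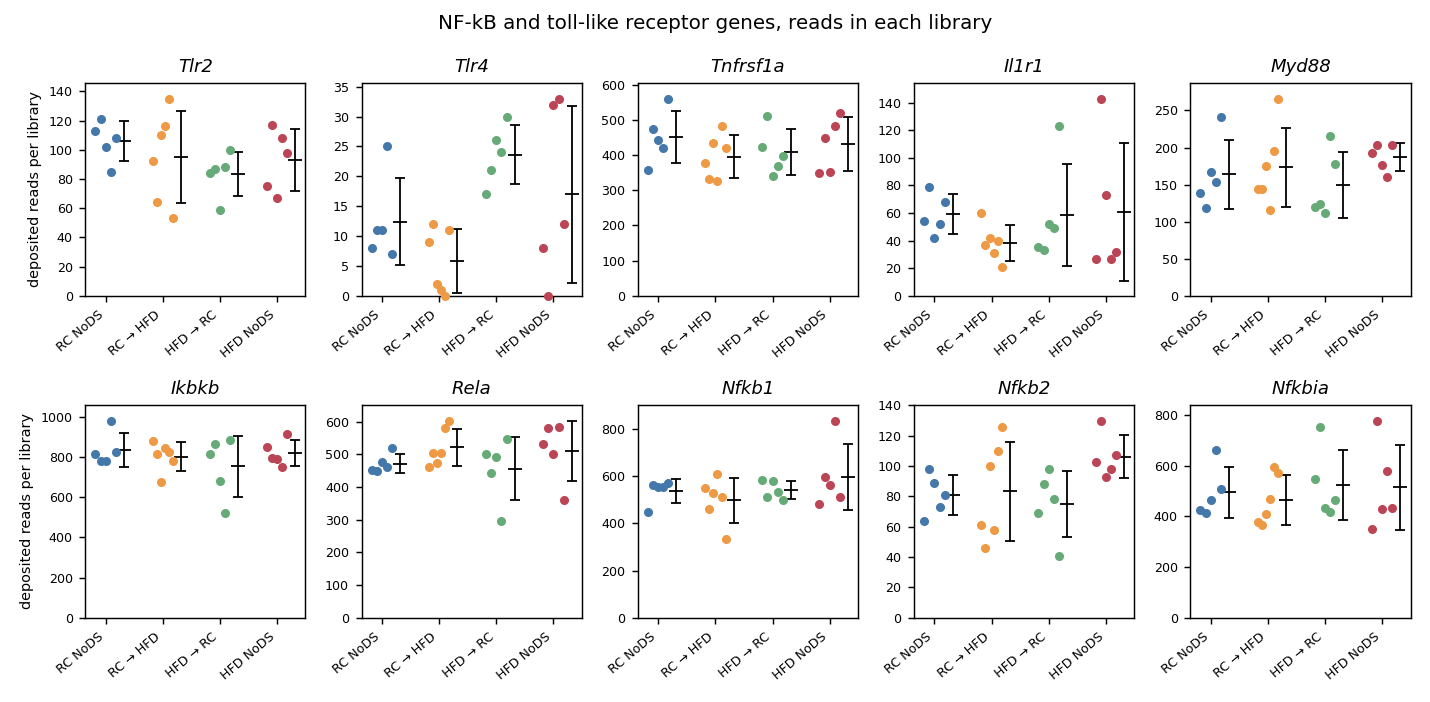
Deposited reads per library (vertical axes, linear from 0) of the 10 genes in the 4 diet groups (horizontal axes), where each point is a library of 2 pooled mice and the bars are mean ± SD over 5 or 6 libraries. Tlr4 lies between 17 and 30 reads in HFD → RC and between 0 and 12 in RC → HFD, whereas the other 9 genes overlap between all groups.

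The comparison of RC NoDS with HFD NoDS asked what sustained HFD did to these transcripts. Nfkb2 had the largest difference of the 9 genes averaging at least 50 reads (the High Filter), with a mean of 106 reads in HFD NoDS against 81.0 in RC NoDS, but it did not pass the test. Rela, Nfkb1 and Myd88 had smaller differences of the same sign, which turned to −0.017 for Rela and −0.0064 for Myd88 on the log2 scale with the share of zero counts as covariate, and Nfkbia and Ikbkb had the smaller values of 0.075 and −0.012, with Nfkbia at −0.27 under that covariate. Counts of the 2 groups overlapped for all 10 genes.

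By the edgeR quasi-likelihood test with Benjamini-Hochberg adjustment over 12768 genes and a threshold of 0.15, 0 of 9 tested genes of the set were called in HFD NoDS against RC NoDS, and 0 had an unadjusted p under 0.05. limma-voom and DESeq2 also called 0 of the 9 genes, with 0 unadjusted p under 0.05 in each. Over all genes tested, edgeR called 10, or 0.0783%. The alternatives that kept all libraries, limma-voom and DESeq2 among them, called 6 to 17 of all genes. The groups did not overlap for 0 of the 9 genes and for 114 of all genes, or 0.893%. The 9 log2 fold changes had a median of 0.075, against 0.0065 over all genes tested, with 6 higher and 3 lower in HFD NoDS. By limma-voom the median was 0.038, against −0.0020 over all genes, with 5 higher and 4 lower.

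Among subunits, Nfkb2 had a log2 fold change of 0.41 (95% interval −0.18 to 1.00, edgeR quasi-likelihood with Benjamini-Hochberg adjusted p = 0.736), an interval that reached from 0.881-fold to 2.00-fold. The change of Nfkb1 was 0.17 (−0.12 to 0.46), and without HFD NoDS replicate 23 it was 0.022. Rela differed by 0.14 on the log2 scale (−0.16 to 0.43), by 0.078 without HFD NoDS replicate 20 and by 0.24 without HFD NoDS replicate 24. These intervals leave room for modest differences in either direction. Nfkbia, the inhibitor, had a log2 fold change of 0.075 (−0.33 to 0.48), which was −0.13 without HFD NoDS replicate 20. Ikbkb was the most narrowly bounded gene, at −0.012 (−0.25 to 0.23).

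Receptors and adaptor showed no common direction under sustained HFD. Myd88 had a log2 fold change of 0.21 (95% interval −0.27 to 0.69), Tlr2 of −0.17 (−0.70 to 0.37) and Tnfrsf1a of −0.051 (−0.35 to 0.25). With each library left out in turn Myd88 ran from 0.11 (without RC NoDS replicate 2) to 0.40 (without RC NoDS replicate 6) and Tlr2 from −0.27 (without HFD NoDS replicate 20) to −0.067 (without HFD NoDS replicate 21). For Il1r1 the estimate of 0.061 (−0.82 to 0.94) rested on HFD NoDS replicate 20, since it was −0.56 without that library. Tlr4 differed by 0.45 with an interval from −1.32 to 2.22, over HFD NoDS counts from 0 to 33. It was 0.068 without HFD NoDS replicate 23, 0.88 without RC NoDS replicate 5 and −0.35 by limma-voom.

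The DS pair, RC → HFD and HFD → RC, was designed to compare opposite current diets and energy balance at similar body mass. The earlier diets of these groups were also opposite, so earlier and current diet cannot be told apart in this pair. Tlr4 was the gene that separated these groups, with every HFD → RC library above every RC → HFD library, but its adjusted p was far from the threshold. Il1r1 was higher on average in HFD → RC, where a single library held most of the difference. The remaining genes had intervals that included no difference.

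Tlr4 had a log2 fold change of 1.99 in HFD → RC relative to RC → HFD, with a 95% interval from 0.25 to 3.73, or 1.19-fold to 13.2-fold. Its unadjusted p was 0.0261 in the edgeR quasi-likelihood fit of genes averaging at least 5 reads, and 0.973 after Benjamini-Hochberg adjustment over those genes. Leaving out each library in turn gave Tlr4 values between 1.73 and 2.32. All 5 libraries of HFD → RC were higher, as given above from counts of at most 30 reads. Among the 15884 genes of that fit, the 2 groups did not overlap for 75, or 0.472%, 798 had an unadjusted p under 0.05, or 5.02%, and edgeR called 2, or 0.0126%. Among the 12768 genes of the High Filter, which leaves Tlr4 out, they did not overlap for 62 genes, or 0.486%, and for 0 of the other 9 genes of the set. In the same 2 groups 12 of 14 microglia markers were higher in HFD → RC under TMM, library size alone and DESeq2 size factors (median log2 fold change 0.17, with 0 called by edgeR and 2 unadjusted p under 0.05). Their summed reads had medians of 9061.5 in RC → HFD and 9285 in HFD → RC and means of 8989 and 10074. Red blood cell markers, of which Hbb-b1 was the most abundant, numbered 5, each above its RC → HFD level in HFD → RC (by a median of 0.91 on the log2 scale, with 0 called by edgeR and 5 unadjusted p under 0.05), and their sums ran from 1057 to 2122 reads in RC → HFD and from 676 to 6760 in HFD → RC. A further cell type list, not given here, was also higher in HFD → RC. Its median change was larger than that of the microglia list, and more of its genes had an unadjusted p under 0.05. The part of these and other cell types in the Tlr4 counts was not tested.

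edgeR called 0 of the other 9 genes between RC → HFD and HFD → RC, with 0 unadjusted p under 0.05, and limma-voom and DESeq2 gave the same counts. Of all genes tested edgeR called 1, or 0.00783%, with 683 unadjusted p under 0.05. The alternatives that kept all libraries, limma-voom and DESeq2 among them, called 0 to 5 of all genes. The median log2 fold change of the 9 genes was −0.092, against 0.00012 over all genes, with 4 higher and 5 lower in HFD → RC. Il1r1 had a log2 fold change of 0.60 (95% interval −0.25 to 1.45), which was 0.14 without HFD → RC replicate 17. Rela differed by −0.20 (−0.48 to 0.087) and by −0.074 without HFD → RC replicate 16, its lowest library. Myd88 gave −0.21 (−0.68 to 0.25), and −0.047 without RC → HFD replicate 12, its highest library.

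The other genes of the DS pair were closer to no difference. Nfkbia had a log2 fold change of 0.17 (95% interval −0.22 to 0.56) and Nfkb1 of 0.12 (−0.16 to 0.40). Nfkb2 differed by −0.16 (−0.73 to 0.41) and Tlr2 by −0.19 (−0.71 to 0.33). Without RC → HFD replicate 12 the change of Nfkb2 was −0.0017 and that of Nfkb1 0.028, and without RC → HFD replicate 11 that of Tlr2 was −0.057. Tnfrsf1a stood at 0.044 (−0.25 to 0.33). Ikbkb, at −0.092 (−0.32 to 0.14), again had the narrowest interval.

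**Figure D2:**
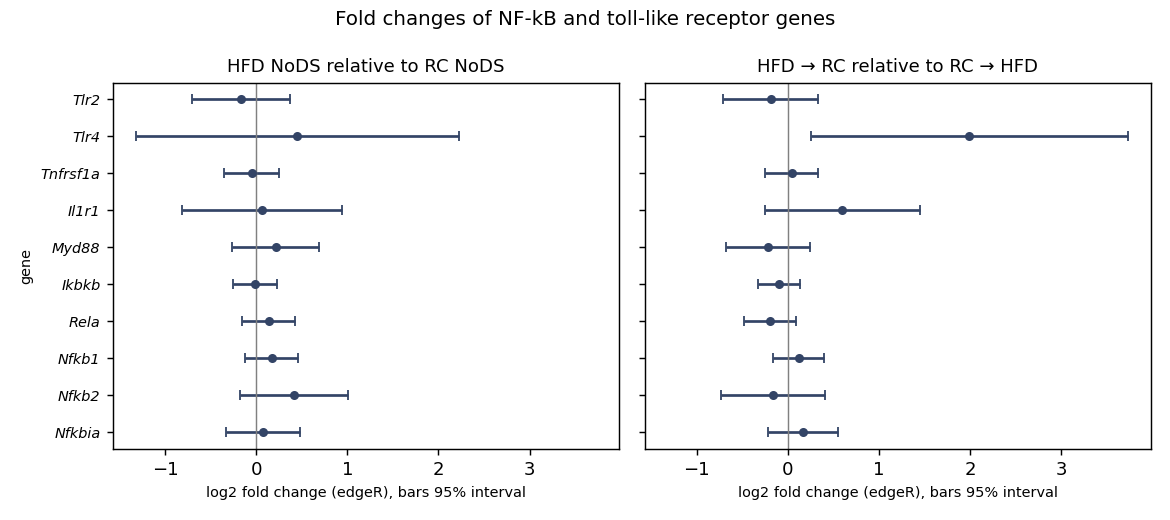
Log2 fold change from edgeR (horizontal axes) of each of the 10 genes (vertical axes) for HFD NoDS relative to RC NoDS (left) and HFD → RC relative to RC → HFD (right), with points for estimates and bars for 95% intervals over 21 libraries. The interval excludes 0 for Tlr4 in the right panel, from 0.25 to 3.73, and includes 0 in all other cases.

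The remaining contrasts placed each gene across all 4 groups and shared libraries with the comparisons above, so they are not separate evidence. Of the 9 genes averaging at least 50 reads, Nfkb1 and Nfkb2 had the smallest unadjusted p in these contrasts, in both cases with HFD NoDS on the higher side. A test over all 4 groups called 0 of the 9 genes by edgeR, limma-voom and DESeq2, with 0 unadjusted p under 0.05 in each, while edgeR called 19 of all genes, or 0.149%. The alternatives that kept all libraries called 9 to 133 of all genes there.

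Nfkb2 was higher in HFD NoDS than in HFD → RC by a log2 fold change of 0.50 (95% interval −0.096 to 1.09), with an unadjusted p of 0.0973 and an adjusted p of 0.694 by edgeR quasi-likelihood with Benjamini-Hochberg adjustment. In that contrast edgeR called 0 of the 9 genes and 9 of all genes, or 0.0705%, and 8 of the 9 genes were higher in HFD NoDS with a median of 0.13 against −0.0047 over all genes. Counts did not overlap for 0 of the 9 genes and for 130 of all genes, or 1.02%. Nfkb1 had the smallest unadjusted p of the 9 genes, 0.0720, in HFD NoDS against RC → HFD, where its log2 fold change was 0.25 (−0.024 to 0.53) and its adjusted p 0.695 by edgeR quasi-likelihood with Benjamini-Hochberg adjustment. Without HFD NoDS replicate 23 that change of Nfkb1 was 0.11. There edgeR called 0 of the 9 genes and 2 of all genes, or 0.0157%, and counts did not overlap for 0 of the 9 and for 95 of all genes, or 0.744%. Tlr4 stood 1.5 higher on the log2 scale in that contrast (−0.23 to 3.24), with an unadjusted p of 0.0860 and an adjusted p of 0.758 by edgeR quasi-likelihood with Benjamini-Hochberg adjustment, and Il1r1 0.65 higher (−0.20 to 1.5), which was 0.035 without HFD NoDS replicate 20.

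Against RC NoDS, no difference of the 9 genes passed the test in either switched group. For RC → HFD, edgeR called 0 of the 9 genes and 5 of all genes, or 0.0392%, and counts did not overlap for 0 of the 9 and for 149 of all genes, or 1.17%. The largest of these differences was that of Il1r1, at −0.59 on the log2 scale (95% interval −1.44 to 0.26), apart from Tlr4 at −1.05 (−2.79 to 0.68), which was −0.62 without RC NoDS replicate 5. For HFD → RC, edgeR called 0 of the 9 genes and 36 of all genes, or 0.282%, and counts did not overlap for 0 of the 9 and for 168 of all genes, or 1.32%. Tlr2 was the furthest apart of the 9, at −0.31 (−0.85 to 0.23), and Tlr4 was at 0.94 (−0.83 to 2.71).

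The interaction, which asked whether the difference between current diets depended on the earlier diet, called 0 of the 9 genes and 4 of all genes, or 0.0313%, by edgeR. In these 5 further contrasts limma-voom and DESeq2 called 0 of the 9 genes, except that DESeq2 gave none of them an adjusted p for RC → HFD against RC NoDS. Of all genes, the alternatives that kept all libraries called 4 to 96 for RC NoDS v RC → HFD and 1 to 147 for RC NoDS v HFD → RC. They called 1 to 32 for RC → HFD v HFD NoDS, 1 to 44 for HFD → RC v HFD NoDS and 0 to 116 for the interaction. No unadjusted p was under 0.05 for any of the 9 genes by edgeR, limma-voom or DESeq2 in the 8 comparisons. By edgeR 8 of the 9 interaction terms were above 0 and 1 below, with a median of 0.22 against −0.0040 over all genes. By limma-voom 9 were above 0. With each library left out in turn, the edgeR terms of Nfkbia (0.035) and Rela (−0.0076) each changed sign in 9 of 21 fits. Of the 9 genes, Il1r1 had the largest interaction term, 0.64 on the log2 scale (95% interval −0.58 to 1.87), followed by Nfkb2 at 0.43 (−0.40 to 1.25), and Tlr4 was at 0.57 (−1.87 to 3.00). The term of Il1r1 was 0.029 without HFD NoDS replicate 20 and 1.10 without HFD → RC replicate 17, that of Nfkb2 was 0.27 without the latter, and that of Tlr4 was 0.14 without RC NoDS replicate 5.

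Spread between libraries of a group, taken as the SD of log2 CPM, separated the genes into steady and variable ones. Among all genes tested it was at percentile 96.9 for Il1r1 and 86.3 for Nfkb2. Myd88 (79.8), Tlr2 (79.7) and Nfkbia (78.4) were also above most genes. Nearer the middle were Rela at percentile 58.3, Nfkb1 at 56.3, Tnfrsf1a at 55.8 and Ikbkb at 41.6. Low counts give a larger spread on this scale, and Il1r1 and Nfkb2 were the least abundant of the 9, whereas Nfkbia averaged 498 reads.

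Extreme counts gathered in a few libraries. HFD NoDS replicate 20 had the highest counts of Nfkbia, Nfkb2 and Il1r1 of all 21 libraries and 0 reads of Tlr4, and also the highest sum of 6 meninges markers, 7193 reads. RC → HFD replicate 12 had the highest counts of Rela and Myd88 and the lowest of Nfkb1, Tlr2 and Il1r1. HFD NoDS replicate 23 was highest in Nfkb1 and Tlr4, and HFD → RC replicate 16 was lowest in Rela and Ikbkb. RC → HFD replicate 11 was highest in Tlr2 and also had 0 reads of Tlr4.

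Counts of the 9 genes were weakly correlated from library to library. Over 21 libraries, which share tissue, depth and diet groups, Pearson r of log2 CPM for the 36 pairs lay between −0.35 and 0.55 with a median of 0.11, and the highest was that of Nfkbia with Tnfrsf1a. Against any other gene tested the median r was −0.0094. Genes most like a given member were picked from all genes tested and are a description only. Nfkbia was most like Dda1 (r = 0.838, Spearman rho = 0.791, n = 21) and Nuak2 (r = 0.831, rho = 0.708), and Tnfrsf1a was most like Olfml2a (r = 0.835, rho = 0.861) and Bgn (r = 0.814, rho = 0.823).

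Tlr2 was most like H2-Aa, a class II antigen-presenting chain (r = 0.807, rho = 0.723, n = 21), and Moxd1 (r = 0.726, rho = 0.686). For Il1r1 the nearest genes were Qsox2 (r = 0.775, rho = 0.781) and Cav1, a caveolar coat protein (r = 0.760, rho = 0.697). Rela was nearest to Trim47 (r = 0.820, rho = 0.725) and 2810008D09Rik (r = 0.767, rho = 0.726). The list continued with Rhpn2 (r = 0.781, rho = 0.586) and Efna1 (r = 0.766, rho = 0.643) for Nfkb1. Nfkb2 had Zfp956 (r = 0.724, rho = 0.652) and Sh2b1 (r = 0.722, rho = 0.71) as its nearest genes. Myd88 had Ttl (r = 0.759, rho = 0.730) and Slc32a1 (r = 0.750, rho = 0.764). Ikbkb had Ctu1 (r = 0.722, rho = 0.582) and Trip10 (r = 0.713, rho = 0.279), with a rho for Trip10 far below its r.

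The wider pathway was followed through 105 genes in 9 lists, of which 103 matched the table, 52 averaged at least 50 reads, 32 averaged 5 to 50 and 19 averaged fewer than 5. Ligands were the scarcest class, with 12 of 16 matched cytokine and chemokine genes under 5 reads. Il1b, the ligand of Il1r1, averaged 1.90 reads and reached at most 8 in any library. Tnf, the ligand of Tnfrsf1a, averaged 1.48 reads with a maximum of 13. Il6 had reads in 2 libraries, 12 in HFD → RC replicate 13 and 1 in RC NoDS replicate 6. Groups are not compared here for these ligands. Cxcl10 averaged 24.2 reads and Csf1, a growth factor for microglia, 983 reads.

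edgeR called 0 of the 52 pathway genes in each of the 8 comparisons, where it called 1 to 36 of all genes. limma-voom called 0 of the 52 as well, and of all genes it called 7 between RC NoDS and HFD → RC and 15 for the interaction. Unadjusted p was under 0.05 by edgeR for 8 of the 52 between RC NoDS and HFD NoDS and for 7 between RC → HFD and HFD → RC, against 946 and 683 of 12768 genes. It was so for 8 over all 4 groups, 3 to 5 in the other contrasts of 2 groups and 1 for the interaction, against 831 to 1129 of all genes. DESeq2 called Socs3 between RC NoDS and HFD NoDS (log2 fold change 0.79, adjusted p = 0.128) and over all 4 groups (adjusted p = 0.0684), and it called Ikbke (log2 fold change −1.36, adjusted p = 0.0976) and Nfkbib (0.39, adjusted p = 0.129) between RC NoDS and HFD → RC, all by its Wald or likelihood-ratio test with Benjamini-Hochberg adjustment. Of all 12768 genes DESeq2 called 17 between RC NoDS and HFD NoDS, 133 over all 4 groups and 147 between RC NoDS and HFD → RC. DESeq2 gave none of the 52 genes an adjusted p for RC → HFD against RC NoDS. The median log2 fold change of the 52 genes was 0.057 in HFD NoDS relative to RC NoDS, with 31 higher and 21 lower, and 0.013 in the DS pair, with 27 higher and 25 lower in HFD → RC, while limma-voom gave medians of 0.027 and −0.014. Over all genes tested, 6587 were higher and 6181 lower in HFD NoDS than in RC NoDS, and 6388 higher and 6380 lower in the DS pair.

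Socs3, a feedback inhibitor of cytokine and leptin signaling, had 145, 183, 169, 192 and 241 reads in RC NoDS and 346, 260, 320, 381 and 280 in HFD NoDS. All HFD NoDS libraries were above all RC NoDS libraries and also above all HFD → RC libraries, which had 148, 222, 147, 231 and 217 reads. RC → HFD libraries ran from 192 to 382 with a median of 207.5 and overlapped both diets. The log2 fold change of Socs3 between the NoDS groups was 0.79 ± 0.20 (SE), with an unadjusted p of 0.000624 and an adjusted p of 0.468 by edgeR quasi-likelihood with Benjamini-Hochberg adjustment. It was the 1 pathway gene of 52 without overlap between RC NoDS and HFD NoDS, where 0.893% of all genes had none. Between HFD → RC and HFD NoDS, where 1.02% of all genes had none, Irak1 did not overlap either, and Ltbr did not between RC → HFD and HFD NoDS, with 0.744% of all genes.

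Map3k7, the kinase TAK1 that activates the IkB kinase complex, had 1074, 1173, 1194, 1110 and 995 reads in RC NoDS and 773, 746, 1000, 1025 and 921 in HFD NoDS. RC NoDS was higher in 4 of 5 libraries than any HFD NoDS library. Its log2 fold change was −0.30 (95% interval −0.49 to −0.10), with an unadjusted p of 0.00383 and an adjusted p of 0.640 by edgeR quasi-likelihood with Benjamini-Hochberg adjustment. Il18, a cytokine whose receptor uses Myd88, had 139, 109, 108, 47 and 70 reads in RC NoDS and 29, 2, 49, 35 and 62 in HFD NoDS. In 4 of 5 RC NoDS libraries Il18 was above every HFD NoDS library, and the lowest count came from HFD NoDS replicate 20. The log2 fold change of Il18 was −1.40 (−2.34 to −0.46), with an unadjusted p of 0.00482 and an adjusted p of 0.640 by the same test. Over the alternatives that kept all libraries it ran from −1.86 (limma-voom) to −0.92.

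Between RC → HFD and HFD → RC the smallest unadjusted p of the 52 genes belonged to Ikbke, a kinase related to Ikbkb. It had between 33 and 68 reads with a median of 54.5 in RC → HFD and 12, 17, 27, 47 and 23 reads in HFD → RC. HFD → RC was the low group for Ikbke, with 4 of 5 libraries below every RC → HFD library. The log2 fold change was −1.05 (95% interval −1.81 to −0.29), with an unadjusted p of 0.00869 and an adjusted p of 0.881 by edgeR quasi-likelihood with Benjamini-Hochberg adjustment. RC NoDS libraries had 49, 102, 58, 67 and 53 reads, all above the HFD → RC libraries, in a comparison where 1.32% of all genes had no overlap. That difference was −1.36 with an adjusted p of 0.206 by edgeR quasi-likelihood with Benjamini-Hochberg adjustment. Ikbke averaged 50.6 reads, just above the High Filter.

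Tnip1 encodes a partner of the deubiquitinase A20 that restrains NF-kB. It had between 616 and 942 reads with a median of 781.5 in RC → HFD and 648, 629, 679, 611 and 523 in HFD → RC, where 4 of 6 RC → HFD libraries were above every HFD → RC library. Its log2 fold change was −0.30 (95% interval −0.54 to −0.049), with an unadjusted p of 0.0205. Birc2, a ubiquitin ligase of the tumor necrosis factor receptor complex, had between 467 and 574 reads with a median of 537.5 in RC → HFD and 390, 340, 416, 633 and 327 in HFD → RC. Birc2 was low in 4 of 5 HFD → RC libraries and highest in the remaining 1, replicate 16. Its log2 fold change was −0.33 (−0.62 to −0.051), with an unadjusted p of 0.0223, and Tnip1 and Birc2 both had an adjusted p of 0.899 by edgeR quasi-likelihood with Benjamini-Hochberg adjustment. Without HFD → RC replicate 16 the change of Birc2 was −0.52 with an adjusted p of 0.0929 by edgeR quasi-likelihood, a setting tried after seeing the data, and in that fit 41 of all genes were called in place of 1.

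**Figure D3:**
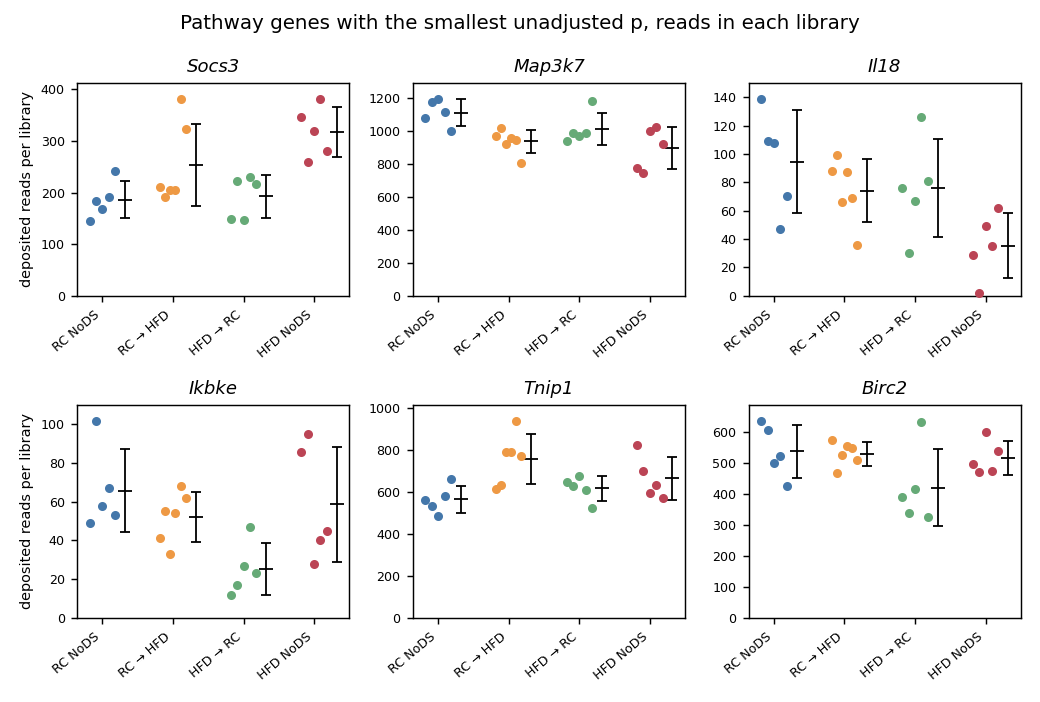
Deposited reads per library (vertical axes, linear from 0) of 6 further pathway genes in the 4 diet groups (horizontal axes), where each point is a library and the bars are mean ± SD over 5 or 6 libraries. Socs3 lies between 260 and 381 reads in HFD NoDS and between 145 and 241 in RC NoDS, and Ikbke lies between 12 and 47 reads in HFD → RC and between 49 and 102 in RC NoDS.

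Tlr2, Tlr4 and Myd88 are known to be expressed by microglia, so the microglia markers are given beside them. All 14 of 14 markers were higher in HFD NoDS than in RC NoDS under TMM, library size alone and DESeq2 size factors, with 0 called by edgeR and 5 unadjusted p under 0.05, and their summed reads had medians of 9137 in RC NoDS and 10503 in HFD NoDS. The most abundant was Csf1r at 1653 reads on average, and none of the 14 was at 0. On the log2 scale Myd88 was at 0.21, Tlr4 at 0.45 and Tlr2 at −0.17 in that contrast, each with an interval that included no difference. Red blood cell markers were lower in HFD NoDS for 5 of 5 genes (median log2 fold change −0.64, with 0 called by edgeR and 1 unadjusted p under 0.05), and their sums had medians of 3724 in RC NoDS and 2052 in HFD NoDS. Markers of endothelium, where Il1r1 and Tnfrsf1a are also known to be expressed, numbered 9 with Slc2a1 the most abundant at 2278 reads, and their sums had medians of 5115 in RC NoDS and 5350 in HFD NoDS. Markers of blood leukocytes were scarce, with sums between 0 and 73 reads per library over 8 genes and 9.38 reads on average for the most abundant, S100a9. Among markers edgeR called the feeding peptide genes Agrp and Npy and, as given above, the orexin gene Hcrt in HFD NoDS against RC NoDS, and Npy in the DS pair. Other marker lists, some with unadjusted p under 0.05 between groups, are not given here, and the part of cell composition in the counts of the 10 genes was not tested.

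Promoters of the genes were searched for an NF-kB motif, GGGNNTTTCC on both strands, since NF-kB is known to act on genes of its own pathway. RefSeq promoter sequences (GRCm38.p6, 250 bases before to 50 after a start) were matched for 7 of the 10 genes, Il1r1, Myd88, Nfkb2, Nfkbia, Rela, Tlr2 and Tnfrsf1a. Of these, 2 held the motif (28.6%), Nfkbia and Nfkb2, as did 14 of 81 genes of the pathway lists (17.3%) and 512 of all 27025 genes (1.89%). The match in Nfkbia read GGAAATTCCC on the strand of the gene, the reverse complement of the motif, 29 bases before the start. Nfkb2 had 3 promoters, 1 with GGGGCTTTCC 11 bases before its start and 2 that share GGGACTTTCC. The Nfkbia promoter (GRCm38.p6 chr12:55492598-55492897, minus strand) and the upstream Nfkb2 promoter (chr19:46304487-46304786, plus strand) are shown because they carry the match, in capitals.
Nfkbia promoter: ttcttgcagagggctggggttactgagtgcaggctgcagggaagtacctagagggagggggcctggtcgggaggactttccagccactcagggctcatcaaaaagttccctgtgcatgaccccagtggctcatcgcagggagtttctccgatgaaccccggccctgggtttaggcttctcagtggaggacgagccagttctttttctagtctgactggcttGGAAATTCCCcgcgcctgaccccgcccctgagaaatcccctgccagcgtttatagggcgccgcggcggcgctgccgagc
Nfkb2 promoter: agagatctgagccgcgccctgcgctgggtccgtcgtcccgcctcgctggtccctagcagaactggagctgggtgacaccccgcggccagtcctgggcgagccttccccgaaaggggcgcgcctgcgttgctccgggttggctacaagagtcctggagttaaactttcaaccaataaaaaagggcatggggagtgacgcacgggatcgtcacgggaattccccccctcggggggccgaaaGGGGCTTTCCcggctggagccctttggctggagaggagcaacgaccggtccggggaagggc
A match is a description of these letters and does not show binding. Both genes overlapped between all groups as given above, with log2 fold changes in HFD NoDS relative to RC NoDS of 0.075 for Nfkbia and 0.41 for Nfkb2. Among all tested genes with the motif, edgeR called 1 of 162 in that contrast (0.617%), Serpina3n, and among those without it 6 of 8964 (0.0669%). The share with the motif rests on this 1 gene. Median log2 fold changes were −0.0028 with the motif and 0.0065 without it. Between HFD → RC and HFD NoDS, a contrast that shares the HFD NoDS libraries, the calls were again 1, Serpina3n, and 6. In the other contrasts of 2 groups and the interaction, 0 of 162 were called, against 1 to 20 of 8964.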

How the data were processed

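The authors made strand-marked, polyA-enriched libraries, sequenced them as single-end reads, aligned them to mm9 with STAR 2.5.1b and re-sampled them with PORT, and the submitters' notes also name Picard 2.7.1. They deposited whole-number counts of reads per gene, used here as deposited for all 21 libraries in the groups given by the labels. Genes averaging at least 50 reads (High Filter) were tested in R 4.3.3 with the quasi-likelihood F-test of edgeR 4.0.16, using TMM factors and 1 mean per group. P-values were adjusted by Benjamini-Hochberg over all genes tested, with a threshold of 0.15. Tlr4 averaged fewer than 50 reads and was tested among genes averaging at least 5 (Low Filter). Fold changes are second group relative to first.

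The 10 genes and all lists were chosen with earlier results of these data known. Named pathway genes are any called by edgeR and the 3 with the smallest unadjusted p in RC NoDS v HFD NoDS and in RC → HFD v HFD → RC. The ligands, Nfkbib (called by DESeq2) and Serpina3n (called, with the motif) were named after their values were seen. For each of the 9 genes the 2 genes with the highest Pearson r of log2 CPM (counts scaled to library size) were named. From marker lists the most abundant gene and any gene called between the 2 NoDS groups or between the 2 switched groups were taken.

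Alternatives were DESeq2 1.42.0, limma-voom (limma 3.58.1), no filter, the Low Filter, library size alone, DESeq2 size factors, robust dispersion, the compared groups alone, reads summed by symbol, a threshold of 0.05, each library left out, and covariates for zero counts and for the ribosomal RNA share taken from the authors' table of read numbers. The same alternatives were run for the 6 named pathway genes after seeing the data, as was leaving out each library for the 10 genes in the further contrasts. Irak1 and Ltbr were named after their counts were seen. The fits were also run on simulated counts of genes averaging at least 50 reads, all given the same dispersion. Those counts covered neither Tlr4 nor the differences in spread between the genes. Python 3.11.15, pandas 2.3.3, numpy 2.4.6, scipy 1.17.1 and matplotlib 3.10.9 were used. Whether counting used strand was not given in the sources used here, so reads of Nfkb2 and Psd, Ikbkb and Gm15346, Myd88 and Acaa1a, Tnip1 and Gm12230, Map3k7 and its antisense neighbor Gm11926, and Nfkbib and Sirt2 cannot be told apart. Re-sampling to a common depth sets how few reads the scarce genes have. Lengths came from the longest coding transcript, and mm9 coordinates and GRCm38.p6 promoters were kept separate.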

Additional observations from a re-analysis of the deposited data

Results flagged for a closer look

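In 6 groups of 5 libraries the highest or lowest value lay further from the other 4 than Dixon's 95% limit allows. Chance gives about 1 in 20 such groups, and these were 4 of 40 groups of the 10 genes and 2 of 48 groups of other values. Nfkb1 had 448 reads in RC NoDS replicate 1, against 553 to 573 in the other libraries of that group. Ikbkb had 981 reads in RC NoDS replicate 5, against 780 to 823. In the same library Tlr4 had 25 reads, against 7 to 11. Il1r1 had 123 reads in HFD → RC replicate 17, against 33 to 52, and Map3k7 had 1180 reads there, against 936 to 985. The summed reads of microglia markers were 10187 in RC NoDS replicate 6, against 8898 to 9245.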

How the results depend on the processing

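No alternative called any of the 9 genes averaging at least 50 reads in a comparison where it gave them an adjusted p. Tlr4 was not called where it was tested. Outside RC NoDS v HFD NoDS and RC → HFD v HFD → RC, most alternatives did not test Tlr4. Over 640 values of their 20 log2 fold changes between RC NoDS and HFD NoDS and between RC → HFD and HFD → RC, 26 were reversed in sign, none passed the threshold and the smallest adjusted p was 0.527 (edgeR, limma-voom or DESeq2, Benjamini-Hochberg). In 10 of the 20 the sign held in every alternative run. In HFD NoDS against RC NoDS, limma-voom turned Tlr4 to −0.35 and Il1r1 to −0.26. The ribosomal RNA share as covariate turned Nfkbia to −0.069, Ikbkb to 0.047, Tnfrsf1a to 0.061 and Il1r1 to −0.21, and Tnfrsf1a in the DS pair to −0.00072. The share of zero counts as covariate turned Nfkbia to −0.27, Rela to −0.017, Myd88 to −0.0064 and Il1r1 to −0.64. With each library left out in turn, values ran from −0.13 to 0.21 for Nfkbia, −0.049 to 0.057 for Ikbkb, −0.13 to 0.041 for Tnfrsf1a and −0.56 to 0.25 for Il1r1 in the NoDS comparison. In the DS pair they ran from −0.0031 to 0.25 for Nfkbia, −0.15 to 0.017 for Ikbkb and −0.053 to 0.11 for Tnfrsf1a. Counts of all genes called moved more. For RC NoDS v HFD NoDS (10) the count was 17 by DESeq2, 6 with either covariate and 5 to 14 with a library left out. For RC → HFD v HFD → RC (1) it was 5 by DESeq2, 3 without a filter, 2 with the Low Filter, 0 with robust dispersion and 1 to 41 with a library left out, 41 without HFD → RC replicate 16. For all 4 groups (19) it was 133 by DESeq2, 31 without a filter, 12 with robust dispersion, 9 with either covariate, 9 at a threshold of 0.05 and 9 to 80 with a library left out. For RC NoDS v RC → HFD (5) it was 96 by DESeq2, which gave an adjusted p to 886 of 12768 genes there, 24 with only these groups and 4 to 11 with a library left out. For RC NoDS v HFD → RC (36) it was 147 by DESeq2, 7 by limma-voom, 10 by library size alone, 1 with zero counts as covariate, 1 at a threshold of 0.05 and 1 to 205 with a library left out. For RC → HFD v HFD NoDS (2) it was 32 by DESeq2, 5 without a filter, 4 with only these groups, 1 with the Low Filter, with either covariate or at a threshold of 0.05, and 1 to 31 with a library left out. For HFD → RC v HFD NoDS (9) it was 44 by DESeq2, 5 without a filter, 4 with the Low Filter, 2 with robust dispersion or at a threshold of 0.05, 1 with only these groups or the ribosomal RNA covariate, 15 with zero counts as covariate and 1 to 13 with a library left out. For the interaction (4) it was 116 by DESeq2, 15 by limma-voom, 2 by library size alone, 0 with the Low Filter, DESeq2 size factors or a threshold of 0.05, 91 with the ribosomal RNA covariate, 33 with zero counts as covariate and 0 to 124 with a library left out. The cause was not tested. DESeq2 gave the 9 genes no adjusted p in RC NoDS v RC → HFD. The alternatives added after seeing the data, for the 6 named pathway genes, reversed none of them, and 2 values passed the threshold after Benjamini-Hochberg adjustment, Socs3 in HFD NoDS against RC NoDS by DESeq2 (log2 0.79, adjusted p = 0.128) and Birc2 in the DS pair by edgeR without HFD → RC replicate 16 (−0.52, adjusted p = 0.0929). Leaving out each library was also run after seeing the data for the 10 genes in the other 4 contrasts of 2 groups and the interaction, and it called none of them, with a smallest adjusted p of 0.519 by edgeR with Benjamini-Hochberg adjustment.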
